A study of Mus musculus with 12 samples.

Results

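Lymphatic vessels drain fluid and immune cells from tissue, and the genes described here mark these vessels or act on them. The set holds 8 genes: Ccl21a, Vegfc, Flt4, Prox1, Lyve1, Pdpn, Mmrn1 and Reln. They were taken by symbol and matched by Ensembl identifier to the gene rows of the deposited tables, 8 of 57054 rows, of which 56647 had a value in every library. Ccl21a was chosen by its counts, which had differed between MI and sham hearts in earlier work on these same libraries, so its values in that contrast are a description with no test. The other 7 were chosen as known genes of lymphatic vessels.

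The tissue was wild-type mouse myocardium, from which the 3′ ends of transcripts were sequenced in 12 libraries, made from 10 mice. The sham group held 3 mice labelled as vehicle-treated in their titles and as sham in their descriptions. The MI group held 3 mice with a myocardial infarction made by ligating the left coronary artery. The NECA-treated MI group held 4 mice that received NECA, an adenosine analogue that activates adenosine receptors, by local delivery into the infarct. The labels of the MI mice name neither a vehicle nor a local delivery, so NECA and its delivery cannot be told apart. The sources used here give no strain, sex, age, dose, time after ligation or sampled region of the heart. For MI mice 2 and 3 there was a 1st library and a repeat named 2nd, and their counts were summed per mouse. The labels name single mice, and p-values measure the spread between them.

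PROX1 is the transcription factor that gives endothelial cells their lymphatic identity, and VEGF-C drives the growth of lymphatic vessels through its receptor VEGFR3, the product of Flt4. Lymphatic endothelium secretes the chemokine CCL21, which draws dendritic cells and T cells that carry the receptor CCR7, and it displays LYVE1, a receptor for hyaluronan, and podoplanin, encoded by Pdpn. None of these genes is exclusive to lymphatic vessels in the heart: cardiomyocytes express Prox1, resident macrophages Lyve1, epicardium and activated fibroblasts Pdpn, platelets Mmrn1, and stromal cells of lymph nodes Ccl21a.

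Mice carry several near-identical copies of the Ccl21 gene, and Ccl21a cannot be read without them. Beside Ccl21a (ENSMUSG00000094686), 4 copies had gene rows: Ccl21b, Gm10591, Gm13304 and Gm21541. In the GENCODE M21 transcripts all 5 had coding sequences of 402 bases. Each of the 4 copies differed from Ccl21a at the same 2 bases, T84A in codon 28 and C194T in codon 65 (Ccl21a base first, position counted from 1 at the A of the start codon), which gave 99.5% identity. The 4 copies did not differ from each other in coding sequence. The difference in codon 65 is the one by which the products are known as CCL21-Ser, made from Ccl21a, and CCL21-Leu. The windows around both differences, 5′ to 3′ along the coding strand with the differing base in capitals, show how few bases separate the copies. Coding bases 70 to 99 are given first and bases 180 to 209 second, and the sequence given for Ccl21b was the same in the other 3 copies.
Ccl21a: agtgatggagggggTcaggactgctgcctt
Ccl21b: agtgatggagggggAcaggactgctgcctt
Ccl21a: ggcaatcctgttctCaccccggaagcactc
Ccl21b: ggcaatcctgttctTaccccggaagcactc

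Because the protocol reads transcripts from their 3′ ends, the bases after the stop codon matter most for telling the copies apart. There the GENCODE M21 transcripts of Gm13304 and Gm21541 differed from Ccl21a at 3 of 393 bases. The M21 models of Ccl21b and Gm10591 hold 0 bases after the stop. The annotation behind the deposited counts is not stated, and its models may differ. In the 1st library of MI mouse 3, the deposited TPM, which divides by effective gene length, was 94.0 for 1789 counts of Ccl21a. It was 15.7 for 297 counts of Ccl21b, a similar ratio, although the M21 transcripts have 870 and 402 bases. RSEM, which the authors used, divides reads that match several genes among them by an estimate.

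Depth was 0.96 to 1.33 M counts (M for 1e6) in 10 libraries and 30.7 and 27.1 M in the 1st libraries of MI mice 2 and 3. Those deep libraries made up 96.9% and 96.6% of their mice's sums, and had a different set of gene rows. They are treated as a batch that holds MI mice only, and values from the 2nd libraries with the other 8 libraries are called within-batch values. Levels are given as CPM, counts per 1e6 counts, after TMM scaling of each mouse, with means ± SD over mice. In the smallest library 3 counts, the upper limit for a count of 0 (one-sided, 95%), correspond to 3.13 CPM. Sham mouse 3 stood apart from sham mice 1 and 2 in markers of atrium, epicardium, fat and thymus, and NECA-treated mouse 4 in skeletal muscle markers such as Myh4 (103 CPM, at most 1.94 CPM in the others). MI mouse 3 had 3644 CPM of the natriuretic peptide gene Nppa, with the other 4 of the 5 atrial markers at or near 0.

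Ccl21a was higher in every MI mouse than in every sham mouse, and the NECA-treated mean lay in between. The 3 sham mice had 8.84, 9.83 and 14.7 CPM, a mean of 11.1 ± 3.14 (SD, n = 3). The 3 MI mice had 34.9, 31.0 and 56.4 CPM, a mean of 40.8 ± 13.7 (SD, n = 3). The 4 NECA-treated mice had 24.1, 32.1, 24.3 and 32.6 CPM, a mean of 28.3 ± 4.74 (SD, n = 4). Sham values did not overlap those of either infarcted group, while NECA-treated mice 2 and 4 lay above MI mouse 2. MI mouse 3 had the highest value of all.

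The log2 fold change of Ccl21a in MI against sham was 1.87 ± 0.30 (SE), and 1.71 ± 0.31 within the batch, where MI mice 2 and 3 had 23.4 and 52.6 CPM. As this contrast chose the gene, no test is given for it. Leaving out 1 mouse at a time gave 1.52 to 2.14, the lowest without MI mouse 3. In bulk tissue, more cells that express a gene and more RNA per cell cannot be told apart, here and for every gene below.

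NECA-treated mice were compared with MI mice to ask whether Ccl21a differed with treatment. The log2 fold change was -0.55 ± 0.24 (SE), with an adjusted p of 0.426 by the quasi-likelihood test of edgeR with Benjamini-Hochberg adjustment over all genes, so Ccl21a did not pass. Its 95% interval reached from -1.06 to -0.04. Within the batch the change was -0.40 ± 0.25, and without MI mouse 3 it was -0.20. Against sham, NECA-treated mice had a log2 fold change of 1.32 ± 0.30 and an adjusted p of 0.619, which did not pass either, although the groups did not overlap. These comparisons share their MI or sham mice with the contrast that chose the gene, so they are not independent of that choice. With no count filter, the edgeR adjusted p against sham was 0.00999, where 27 of 24735 genes passed.

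**Figure D1:**
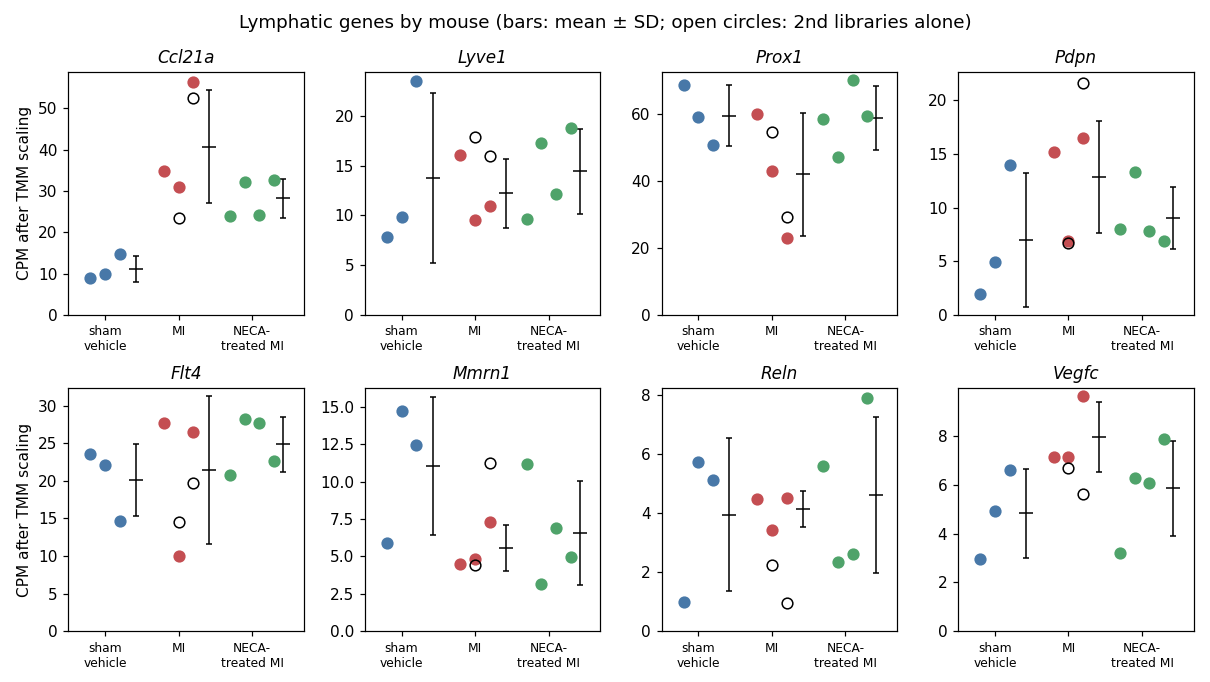
Level of each of the 8 genes by mouse, in CPM after TMM scaling on a linear axis with its own range per gene. Filled points are single mice, open circles the 2nd libraries of MI mice 2 and 3 alone, and bars group means with SD. Only for Ccl21a do the infarcted groups both lie wholly above the sham mice, which reach 14.7 CPM.

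Counts of the other copies depended on which row had received the reads. Ccl21b and Gm10591 had equal counts in all 12 libraries. Counts fell to this pair in 7 libraries, to Gm13304 in 4 and to Gm21541 in 1, and 0 libraries had counts in more than 1 of these 3. The 1st library of MI mouse 2 had 164 counts each for Ccl21b and Gm10591 and 0 for Gm13304, whereas the 2nd library of that mouse had 0 for the pair and 5 for Gm13304. The sum of these copies is therefore given in place of single rows.

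The 4 other copies together had 9.82, 8.19 and 6.61 CPM in sham mice and 5.36, 11.7 and 18.7 CPM in MI mice. NECA-treated mice had 6.41, 5.49, 11.3 and 5.93 CPM. The groups overlapped, and the log2 fold change in MI against sham was 0.69 ± 0.40 (SE; edgeR adjusted p = 0.448), and 0.10 within the batch. The share of Ccl21a in the counts of all the named copies was 47.4%, 54.5% and 69.0% in sham mice. It was 72.4% to 86.7% in the 5 MI libraries and 68.3% to 85.4% in NECA-treated mice. In sham mice 1, 2 and 3 this share rested on 19, 22 and 29 counts. Its Clopper-Pearson 95% intervals there were wide: 24.45% to 71.1%, 32.2% to 75.6% and 49.2% to 84.7%. In the deepest libraries they were narrow, 69.8% to 74.9% in the 1st library of MI mouse 2 and 73.3% to 76.8% in that of MI mouse 3. All these intervals cover counting error only.

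Summed over the 5 copies found by symbol, which does not depend on how reads were divided among these 5, the order of the groups was kept. Ccl21a made up most of this sum in every infarcted library. The sum is therefore not independent of the choice of Ccl21a, and its order is a description. Gene rows without a symbol in GENCODE M21 were not searched for further copies. Sham mice had 18.7, 18.0 and 21.3 CPM, a mean of 19.3 ± 1.75 (SD, n = 3). MI mice had 40.2, 42.7 and 75.1 CPM, a mean of 52.7 ± 19.5 (SD, n = 3), and NECA-treated mice 30.5, 37.6, 35.5 and 38.5 CPM, a mean of 35.5 ± 3.60 (SD, n = 4). On the sum, every NECA-treated mouse was below every MI mouse, and every sham mouse was below all of these. Over all genes tested, NECA-treated and MI mice separated in either direction for 9.12%. MI lay wholly above sham for 7.34%, and NECA-treated above sham for 4.28%. Within the batch MI mouse 2 had 29.0 CPM, below all 4 NECA-treated mice, so the separation of NECA-treated from MI mice rested on its 1st library.

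For the summed copies the log2 fold change in MI against sham was 1.47 ± 0.26 (SE), smaller than for Ccl21a alone, and 1.24 within the batch. Without MI mouse 3 it was 1.10. NECA-treated against MI mice gave -0.60 ± 0.22 with an edgeR adjusted p of 0.367, and -0.37 within the batch. NECA-treated against sham mice gave 0.87 ± 0.26 with an edgeR adjusted p of 1. Neither passed the threshold of 0.05. Like those of Ccl21a, these comparisons are not independent of the choice of that gene.

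**Figure D2:**
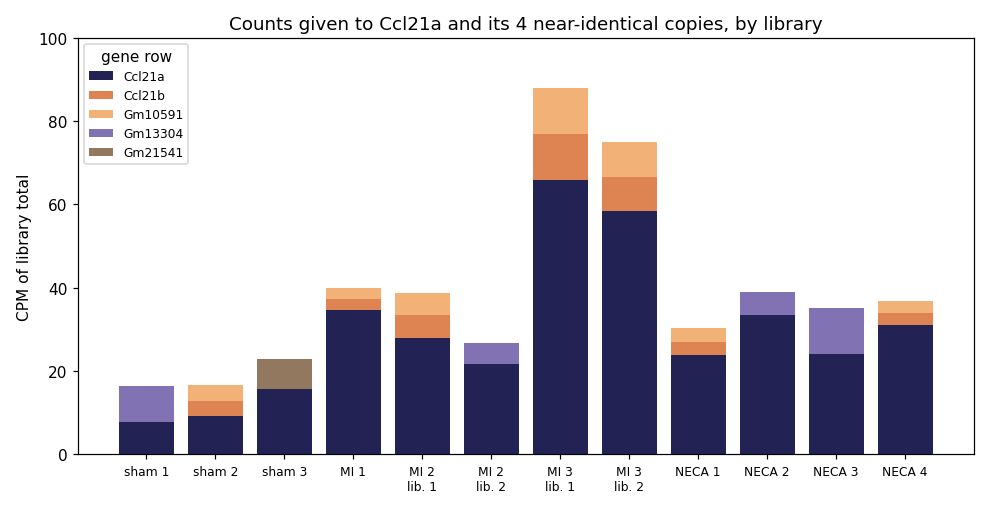
Counts of the 5 Ccl21 gene rows in each of the 12 libraries as CPM of the library total, stacked by row. Ccl21a makes up most of the Ccl21 counts of every infarcted library, the remainder sits in a single row or in the Ccl21b and Gm10591 pair, and the tallest bar, the 1st library of MI mouse 3, reaches 87.8 CPM.

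Vegfc (ENSMUSG00000031520), the growth factor for lymphatic vessels, was counted too rarely to pass the count filter. Sham mice had 2.95, 4.92 and 6.61 CPM and MI mice 7.15, 7.14 and 9.64 CPM. NECA-treated mice had 3.21, 6.27, 6.07 and 7.90 CPM. The MI mice lay above all sham mice, but not within the batch, where MI mice 2 and 3 had 6.69 and 5.64 CPM from 6 counts each. Tested with no count filter, the log2 fold change in MI against sham was 0.77 ± 0.48 (SE; edgeR adjusted p = 0.641), in NECA-treated against MI -0.53 ± 0.43 and in NECA-treated against sham 0.23 ± 0.52, and none passed.

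Flt4 (ENSMUSG00000020357), the receptor for VEGF-C, showed no separation of the groups. The levels were 23.6, 22.1 and 14.7 CPM in sham mice, 27.7, 10.1 and 26.6 CPM in MI mice and 20.8, 28.2, 27.7 and 22.7 CPM in NECA-treated mice. MI mouse 2 had the lowest value of all mice. MI against sham gave 0.03 ± 0.35 on the log2 scale (SE; edgeR adjusted p = 0.979), with a 95% interval from -0.71 to 0.77. NECA-treated mice gave 0.29 ± 0.32 against MI and 0.32 ± 0.35 against sham.

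Prox1 (ENSMUSG00000010175), the regulator of lymphatic identity, was lowest in MI mouse 3. Sham mice had 68.7, 59.0 and 50.7 CPM, MI mice 59.9, 42.9 and 23.1 CPM, and NECA-treated mice 58.5, 47.0, 70.2 and 59.3 CPM. The MI mean of 41.9 ± 18.4 (SD, n = 3) was below 59.5 ± 9.03 (n = 3) in sham and 58.8 ± 9.48 (n = 4) in NECA-treated mice, with overlap between the groups. The log2 values were -0.58 ± 0.28 (SE; edgeR adjusted p = 0.338) in MI against sham and 0.57 ± 0.26 (edgeR adjusted p = 0.442) in NECA-treated against MI, and neither passed. Within the batch these were -0.31 and 0.29, and without MI mouse 3 they were -0.26 and 0.24. The genes Prox1os and Gm28172 overlap Prox1 on the other strand, and whether reads were counted by strand is not given in the sources used here. Prox1os had at most 3 counts in the 10 shallower libraries.

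Cardiomyocytes also express Prox1, and their 10 markers summed to 92340, 88400 and 66160 CPM in sham mice, 71590, 73810 and 49690 CPM in MI mice and 69150 to 81550 CPM in NECA-treated mice. MI mouse 3 was lowest for both, while MI mouse 2 had a higher sum than sham mouse 3 and a lower Prox1. Of the 10 markers, 4 were higher and 6 lower in MI than in sham, and 2 were higher and 8 lower in NECA-treated than in sham mice. The part of cardiomyocyte RNA in the Prox1 values was not tested. NECA-treated against sham mice gave -0.01 ± 0.27 for Prox1.

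Lyve1 (ENSMUSG00000030787), the hyaluronan receptor, did not separate the groups. Sham mice had 7.86, 9.83 and 23.5 CPM, MI mice 16.1, 9.57 and 10.9 CPM, and NECA-treated mice 9.62, 17.2, 12.1 and 18.8 CPM. Sham mouse 3 had the highest value of all, and its 9 markers of tissue-resident macrophages summed to 410 CPM, against 213 and 189 CPM in the other sham mice, 300.2 to 397 CPM in MI mice and 231 to 357 CPM in NECA-treated mice. For Lyve1 the log2 fold change in MI against sham was -0.30 ± 0.37 (SE; edgeR adjusted p = 0.758), and 0.23 within the batch and 0.35 without sham mouse 3, so its direction was not settled. In NECA-treated against MI mice it was 0.33 ± 0.35 and -0.21 within the batch.

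Pdpn (ENSMUSG00000028583), encoding podoplanin, also had its highest sham value in sham mouse 3. Sham mice had 1.96, 4.92 and 14.0 CPM, MI mice 15.2, 6.86 and 16.5 CPM, and NECA-treated mice 8.02, 13.3, 7.80 and 6.91 CPM. For Pdpn the log2 fold change in MI against sham was 0.77 ± 0.51 (SE; edgeR adjusted p = 0.504) with 1.80 without sham mouse 3 (edgeR adjusted p = 0.144) and 0.37 without MI mouse 3. The 12 markers of epicardium and mesothelium, cells that also carry podoplanin, summed to 25.5, 41.8 and 477 CPM in the sham mice, 81.9 to 301 CPM in MI mice and 39.9 to 232 CPM in NECA-treated mice. The 11 fibroblast markers summed to 702, 667 and 1713 CPM in sham, 2134, 1453 and 10300 CPM in MI and 2733, 4546, 2841 and 1536 CPM in NECA-treated mice. The part of these cells in the Pdpn values was not tested. NECA-treated against MI mice gave -0.45 ± 0.45 for Pdpn and -0.06 without MI mouse 3.

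Mmrn1 (ENSMUSG00000054641) encodes multimerin 1, a protein of lymphatic endothelium and of platelets. Sham mice had 5.89, 14.8 and 12.5 CPM, MI mice 4.47, 4.85 and 7.31 CPM, and NECA-treated mice 11.2, 3.14, 6.94 and 4.94 CPM. Sham mice 2 and 3 had the highest values, and sham mouse 1 lay within the MI range. MI against sham gave a log2 fold change of -0.94 ± 0.43 (SE), with an unadjusted p of 0.0435 and an edgeR adjusted p of 0.325, which did not pass. Within the batch the change was -0.72, with a p of 0.173 in edgeR, and MI mouse 3 had 11.3 CPM. The 7 platelet markers summed to 6.91 to 25.2 CPM over the 10 mice, with overlapping groups.

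Reln (ENSMUSG00000042453), which encodes the secreted protein reelin, did not pass the count filter. Sham mice had 0.982, 5.74 and 5.14 CPM, MI mice 4.47, 3.45 and 4.53 CPM, and NECA-treated mice 5.61, 2.35, 2.60 and 7.90 CPM. These rest on 1 to 8 counts per library outside the 1st libraries, and the groups overlapped. The deposited log2(TPM + 1) values, which divide by effective gene length, gave a TPM of 4.66 for 5 counts in MI mouse 1 and of 0.83 for 7 counts in NECA-treated mouse 1. CPM from counts was therefore used throughout.

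Both MI mice with a pair of libraries allowed a check of counting error. For 15 of 16 pairs of a gene and a mouse, the CPM of the 1st library, relative to its library total, fell inside the exact Poisson 95% interval of the 2nd. The exception was Lyve1 in MI mouse 2, with 8.33 CPM in the 1st library and 16.5 CPM (9.41 to 26.7) in the 2nd. The interval for 1 count of Reln in the 2nd library of MI mouse 3 ran from 0.03 to 5.80 CPM, which shows how little these depths fix for the rarest of the 8 genes.

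Side by side, the 8 genes did not move as a set. In MI against sham, 6 of 8 could be tested, with 3 higher and 3 lower. Ccl21a alone of these passed the threshold, the call that chose it, where 0.155% of all 9688 genes tested did, and nothing is read from that count. MI lay wholly above sham for 2 of 8, Ccl21a and Vegfc, where 7.34% of all genes tested did, and within the batch for Ccl21a alone, where 7.14% did. Nothing is read from these counts either, as Ccl21a was chosen on this contrast and Vegfc was not among the genes tested. Without Ccl21a the smallest edgeR adjusted p of the tested genes was 0.325.

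In NECA-treated against MI mice, 4 of the 6 tested genes were higher and 2 lower by edgeR and 0 passed, where 0.0103% of all genes did (1 gene). Beside Ccl21a, 1 tested gene, Prox1, had an unadjusted p under 0.05, as did 10.9% of all genes. For 0 of 8 did the groups separate, against 9.12% of all genes. In NECA-treated against sham mice, 0 of 6 passed by edgeR, as did 0% of all genes, and NECA-treated mice lay wholly above sham for 1 of 8, Ccl21a, against 4.28% of all genes. Over all genes, 411 (4.24%) had an unadjusted p under 0.05 in that comparison, and beside Ccl21a 0 of the tested genes of the set did. A gene that misses the threshold is not shown to be unchanged: the 95% intervals in MI against sham ran from -1.09 to 0.48 for Lyve1 and from -0.30 to 1.85 for Pdpn.

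**Figure D3:**
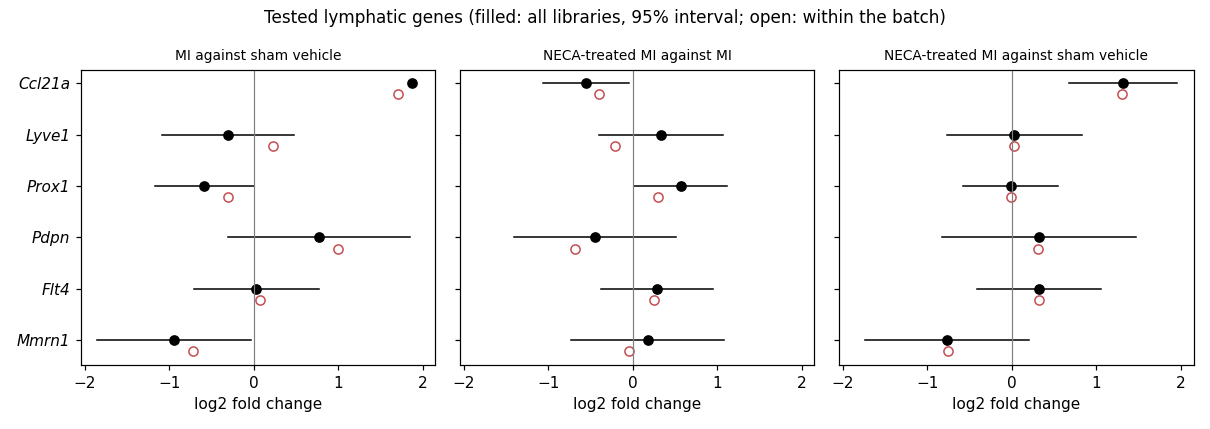
Log2 fold changes for the 6 genes that passed the count filter in the 3 comparisons, from all libraries (filled, with 95% intervals as lines) and within the batch (open). Ccl21a in MI against sham, at 1.87, has no interval drawn because that contrast chose it, and the Lyve1 value there changes sign within the batch.

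Genes of the same pathways were taken from 6 lists with 98 genes, of which 93 had a gene row and 58 passed the count filter. They were chosen with earlier results of these data known. In MI against sham, 1 of 58 passed higher and 0 lower by edgeR, against 0.0723% and 0.0826% of all genes, and 12 had an unadjusted p under 0.05, as did 14.9% of all genes. Of the 58, 36 were higher and 22 lower, with a median log2 fold change of 0.08 against 0.0048 over all genes. In NECA-treated against MI mice 0 of 58 passed by edgeR or DESeq2 and 9 had an unadjusted edgeR p under 0.05 (10.9% of all genes), with 29 higher and 29 lower. In NECA-treated against sham mice 0 of 58 passed by edgeR or DESeq2 and 7 had an unadjusted edgeR p under 0.05 (4.24% of all genes), with 39 higher and 19 lower.

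The gene that passed was Klf2, a transcription factor induced by fluid flow in blood and lymphatic endothelium and needed for lymphatic valves. Sham mice had 40.3, 32.0 and 27.2 CPM, MI mice 66.2, 67.4 and 74.8 CPM, and NECA-treated mice 49.7, 56.4, 40.7 and 44.4 CPM. MI mice lay above all others, and the lowest NECA-treated mouse lay just above the highest sham mouse. MI against sham gave 1.08 ± 0.20 on the log2 scale (SE; edgeR adjusted p = 0.0396). Within the batch, where MI mouse 2 had 39.0 CPM and overlapped the sham mice, it was 0.80 with an edgeR adjusted p of 0.234. Klf2 passed in 6 of 19 other settings. Leaving out any 1 of the sham mice, MI mouse 3 or any 1 of the NECA-treated mice lost the call.

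Among transcription factors and valve genes, 12 of 14 tested genes were higher in MI than in sham mice, with a median log2 fold change of 0.45. Next to Klf2 by p was Sox17, an endothelial factor of arteries and valves, with 1.30 ± 0.44 (SE) and an edgeR adjusted p of 0.19. Gja4, which encodes a connexin of endothelium and lymphatic valves, had the smallest p of this list after Klf2 in NECA-treated against MI mice, at -0.92 ± 0.33 (edgeR adjusted p = 0.362).

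Of the ligands of the VEGF-C pathway and their processing factors, 4 of 9 tested genes were higher and 5 lower in MI than in sham. Angpt1, a ligand of the TIE2 receptor, had the smallest p, at -1.14 ± 0.50 (SE; edgeR adjusted p = 0.329). Ccbe1 encodes a secreted protein needed to activate VEGF-C. Its means were 9.57 ± 1.38 CPM (SD, n = 3) in sham, 5.71 ± 0.52 (n = 3) in MI and 11.5 ± 2.76 (n = 4) in NECA-treated mice. MI mice lay below all other mice for Ccbe1, but within the batch MI mouse 2 had 8.92 CPM and overlapped both other groups. NECA-treated against MI mice gave 0.97 ± 0.32 (edgeR adjusted p = 0.318) and 0.79 within the batch. Vegfd, the other ligand of VEGFR3, was below the count filter, with 0.819 to 1.96 CPM in sham, 2.50 to 7.56 CPM in MI and 2.60 to 6.27 CPM in NECA-treated mice.

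Of the receptors, 8 of 13 tested genes were higher and 5 lower in MI than in sham. Ramp2, part of the adrenomedullin receptor, had 0.71 ± 0.22 (SE; edgeR adjusted p = 0.164) in MI against sham, and 0.43 within the batch, where MI mouse 2 fell inside the sham range at 27.9 CPM. Nrp1, a co-receptor for VEGF-A, had -0.56 ± 0.19 (edgeR adjusted p = 0.191) in MI against sham and 0.62 ± 0.18 (edgeR adjusted p = 0.29) in NECA-treated against MI mice. Its 4 NECA-treated mice had 107.5 to 116 CPM, against 63.1 to 83.1 CPM in MI and 81.6 to 129 CPM in sham mice, so MI and NECA-treated mice did not overlap. Within the batch MI mouse 2 had 102.5 CPM, and the changes were -0.32 and 0.38.

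Of 10 further markers of lymphatic endothelium that were tested, 6 were higher and 4 lower in MI than in sham. Gng11, a G protein subunit of endothelium, had the smallest p in both comparisons with MI mice, at 1.09 ± 0.31 (SE; edgeR adjusted p = 0.128) against sham and -0.91 ± 0.28 (edgeR adjusted p = 0.295) for NECA-treated against MI. MI mouse 2 had 58.9 CPM of Gng11, and MI mice 1 and 3 had 22.4 and 39.0 CPM. Within the batch the values were 0.68 and -0.49. Fxyd6, an ion pump subunit, had 101 CPM in MI mouse 3 and 20.6 to 31.2 CPM in the other 9 mice.

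Of the CCR7 axis, 3 of 10 genes with a row passed the count filter. Ccr7, the receptor for CCL21, had 5.36 CPM in MI mouse 1 and 0 to 0.80 CPM in the other 9 mice. Ccl19, the other ligand of CCR7, was at 0 to 1.73 CPM. These are levels of at most a few counts in most libraries, so the receptor of CCL21 was not measurable at this depth in most mice. Ackr4, which encodes a receptor that takes up CCL21 and CCL19, had 3.28 to 5.14 CPM in sham, 7.15 to 14.2 CPM in MI and 1.98 to 5.61 CPM in NECA-treated mice. Its MI mice lay above all other mice. Within the batch MI mouse 2 had 5.57 CPM, still above all sham mice but below NECA-treated mouse 1. Ackr4 was below the count filter. Of the tested genes, Cxcr4, the receptor for CXCL12, had 0.91 ± 0.47 (SE; edgeR adjusted p = 0.384) in MI against sham.

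Among partners of LYVE1, podoplanin and reelin, 4 of 9 tested genes were higher and 5 lower in MI than in sham. Hyal1, which encodes an enzyme that degrades the LYVE1 ligand hyaluronan, had -1.20 ± 0.54 (SE; edgeR adjusted p = 0.308) in MI against sham and 1.25 ± 0.50 (edgeR adjusted p = 0.394) in NECA-treated against MI mice. Its level was 1.58 to 6.88 CPM in MI mice, 5.89 to 12.49 CPM in sham and 6.27 to 12.8 CPM in NECA-treated mice. MI mouse 3 overlapped both other groups.

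**Figure D4:**
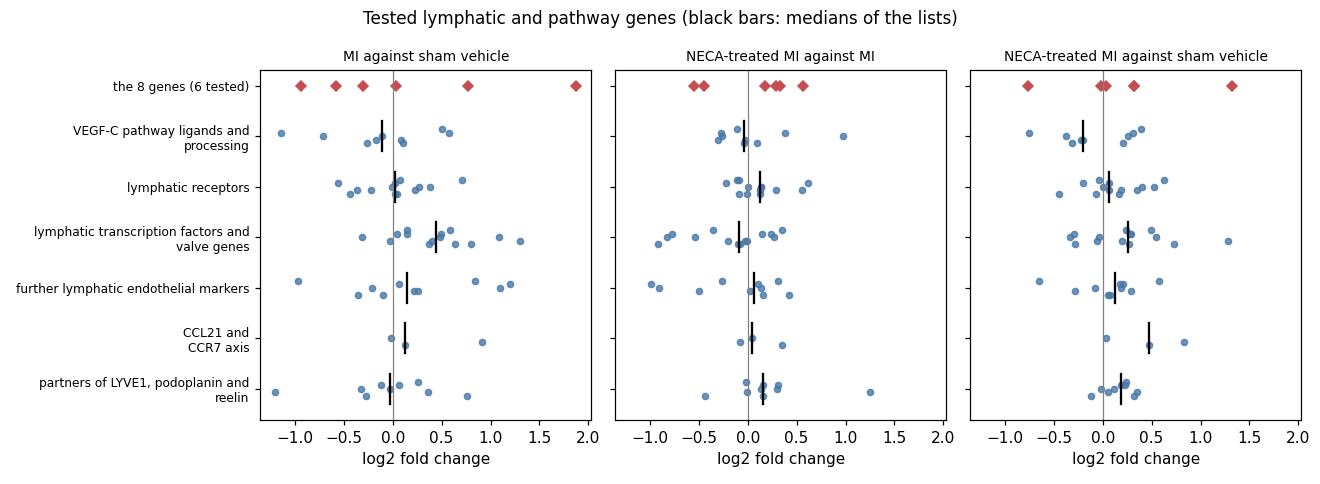
Log2 fold changes of the tested pathway genes by list in the 3 comparisons, with each blue point a listed gene, red diamonds the tested genes of the set and black bars the list medians. In MI against sham the points of all 6 lists lie on both sides of 0, and Klf2, at 1.08 in MI against sham, is the gene that passed the threshold.

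Markers of other cell types were summed per mouse to set beside the 8 genes. The 12 blood endothelial markers summed to 2484 to 2951 CPM in sham, 2413 to 3081 CPM in MI and 2635 to 2761 CPM in NECA-treated mice, with overlapping sums and a median log2 fold change of 0.0029 in MI against sham. Single markers went both ways. Of the 12, 3 (Egfl7, Ly6c1 and Esam) lay wholly higher in MI than in sham, where 7.34% of all genes tested did. Another 2 (Vwf and Kdr) lay wholly lower, where 7.89% of all genes did. Of these named genes, 4 also separated within the batch, where 14.3% of all genes separated in either direction. The 13 markers of macrophages and monocytes summed to 241 to 495 CPM in sham, 517 to 1143 CPM in MI and 554 to 867.5 CPM in NECA-treated mice, with no overlap between sham and either infarcted group. Within the batch MI mouse 2 had 421 CPM, which is inside the sham range. The fibroblast sum was highest in MI mouse 3, which also had the highest Ccl21a. The part of macrophages and fibroblasts in the Ccl21a values was not tested.

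Lymph nodes, T cell zones and thymus also express Ccl21a. The 17 markers of lymph node, T and B cells and lymphoid stroma summed to 67.8, 65.6 and 340 CPM in sham, 1322, 377 and 254 CPM in MI and 826, 246, 68.5 and 488 CPM in NECA-treated mice. MI mouse 3 had the lowest of these sums among the MI mice and the highest Ccl21a. Glycam1, a marker of lymph node venules, was at 0 in all 10 mice, and Ccl19, a product of lymph node stroma, had at most 1.73 CPM. MI mice had 0.89 to 1.68 CPM of Ccl19 and sham mice 0 to 0.73 CPM. Cxcl13 of the same list had 0 to 4.41 CPM in sham, 1.35 to 8.94 in MI and 0 to 9.62 in NECA-treated mice. The 10 thymus markers summed to 54.4 CPM in sham mouse 3 and to at most 8.05 CPM in every other mouse. Of the 10, 8 had counts in sham mouse 3. Dntt had 13.23 CPM there and at most 0.07 CPM in every other mouse, and Rag1 was also highest there. Foxn1, the thymic epithelial factor, was at 0 in all 10 mice, so it does not tell sham mouse 3 from the others. The part of lymphoid tissue in the Ccl21a values was not tested.

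**Figure D5:**
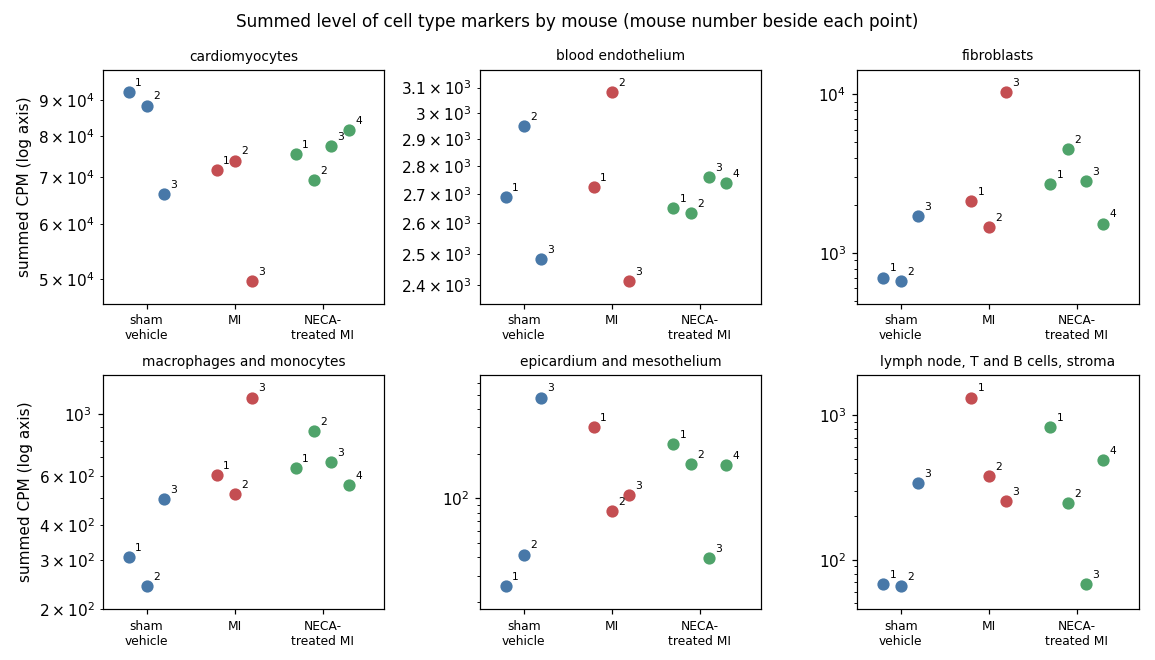
Summed CPM of markers of 6 other cell types by mouse, on log axes with a range of their own, with the mouse number beside each point. Blood endothelial sums overlap in all groups, between 2413 and 3081 CPM, macrophage sums of infarcted mice lie above all sham mice, and MI mouse 3 is highest for fibroblasts and lowest for cardiomyocytes.

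For each gene that passed the filter, the genes with the most similar pattern over the 10 mice were found by the root mean square difference of log2 CPM centred on each gene's mean, among tested genes with a mean of at least 10 CPM. This is a description of these mice, which share group structure and depth. For Ccl21a they were Prcp (0.245), a lysosomal peptidase, Cd63 (0.318), a tetraspanin of late endosomes and lysosomes, and Lyz2 (0.323), the lysozyme of macrophages. Lyz2 had 87.7 to 189 CPM in sham and 227 to 499.6 CPM in MI mice. For Prox1 they were Taco1 (0.105), which is needed to make a respiratory chain subunit, the mitochondrial gene mt-Nd5 (0.126) and Vwa8 (0.130). For Pdpn they were Col18a1 (0.251), a basement membrane collagen, Olfml2b (0.298) and Ptgs1 (0.325).

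Lyve1 was most like Fmo1 (0.245), Smg6 (0.251) and Prmt3 (0.251), and Flt4 most like Carm1 (0.179), Cdc42bpg (0.191) and Nup188 (0.193). Mmrn1 had the least close matches, Zswim4 (0.350), Gm20721 (0.352) and Desi1 (0.388). None of these genes is in the set or in the 6 pathway lists. Pdpn, Mmrn1, Reln and Vegfc had too few counts to be candidates themselves.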

How the data were processed

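Total RNA of myocardial tissue was turned into 3′-end libraries by a modified CEL-Seq2 protocol without pooling, per the labels' protocols. The authors deposited expected counts per gene made with STAR and RSEM on the build GRCm39, per the submitters' processing notes, which also name FastQC 0.11.9. A second table holds log2(TPM + 1) as deposited by the authors. No source used here gives the annotation release, strand setting or use of molecular identifiers. The expected counts were already whole numbers.

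The 8 genes and all gene lists were chosen with earlier results of these data known. Names came from GENCODE M21 through the Ensembl identifiers, which covered 52029 gene rows and also gave the Ccl21 transcripts. GENCODE M21 belongs to another build, so none of its coordinates are printed. Its gene spans were used to find genes that overlap the 8. They also placed 4930578G10Rik, with at most 2 counts in any library, over Ccl21a on the other strand. Several genes overlapped Reln, some of them on the same strand. Of the gene rows, 306 held values solely in the deep libraries and 101 lacked them there; these were left out.

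Counts were tested in 1 fit of all 10 mice by the robust quasi-likelihood test of edgeR 4.0.16 (R 4.3.3; filterByExpr, TMM), a two-sided test; the threshold was an adjusted p of 0.05 by Benjamini-Hochberg over 9688 genes. Fold changes use that fit, and intervals its moderated degrees of freedom. The procedure was tested on simulated data. In separate fits the 5 Ccl21 rows, or the 4 other than Ccl21a, were replaced by their sum, chosen after seeing the data. Alternatives were the 1st or 2nd libraries alone, DESeq2 size factors, no scaling, no count filter, DESeq2 1.42.0, limma 3.58.1 on log2(TPM + 1), 2 groups alone, a replicate block and leaving out each mouse. The text names all 8 genes, each listed gene past the threshold, otherwise the 1 or 2 of smallest p per list, and the 3 closest patterns per gene. Vegfd, Ackr4, Ccr7, Ccl19, Cxcl13, Fxyd6, Glycam1, Foxn1, Dntt, Rag1, Myh4, Nppa and 5 blood endothelial genes were named after their values were seen. Poisson and Clopper-Pearson intervals cover counting error only.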

Additional observations from a re-analysis of the deposited data

How the results depend on the processing

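In MI against sham, Ccl21a and Klf2 were the 2 genes of the set and its pathway lists past the threshold, and the call of Ccl21a is the one that chose it. The number was 1 within the batch, 1 with the replicate block, 0 without scaling factors, 0 by limma, 0 for the 2 groups compared alone and 5 with no count filter (Sox17, Gng11 and Fxyd6 joining). Leaving out 1 mouse gave 0 to 3: 0 without sham mouse 1 or sham mouse 2, and 3 without MI mouse 1. In NECA-treated against MI mice the number was 0, and 2 with no count filter, and 0 to 1 over the leave-one-out fits, with Gng11 called without MI mouse 1. In NECA-treated against sham mice it was 0, and 1 (Ccl21a) with no count filter. The cause of these changes was not tested. Over all genes, MI against sham gave 15 calls, 346 with no count filter, 92 by DESeq2, 7 within the batch, 6 with no scaling factors, 6 with the replicate block and 0 by limma or for 2 groups alone. It gave 0 calls without sham mouse 1 or 2, 40 without sham mouse 3, 310 without MI mouse 1, 67 without MI mouse 2, 5 without MI mouse 3 and 3 to 5 without a NECA-treated mouse. NECA-treated against MI gave 1 call, 74 with no count filter, 5 by DESeq2 and 121 without MI mouse 1. NECA-treated against sham gave 0 calls, 27 with no count filter (of 24735 genes), 4 by DESeq2 and 7 for 2 groups alone.

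Of 376 alternative values of single genes and of the summed Ccl21 copies, 351 stayed the same and 23 changed sign. The same meant a kept direction and side of the threshold. For Ccl21a and the summed copies in MI against sham, it meant a shift below the SD of Ccl21a within groups. The summed copies there shifted more without MI mouse 3, to 1.10. Ccl21a in NECA-treated against sham passed with no count filter. Ccl21a in MI against sham kept its direction in 19 of 19 settings and its call in 14. The same data chose the gene, so no test is given and nothing is read from these counts. In MI against sham, Lyve1 was 0.23 within the batch and 0.10 by limma, and -0.54 to 0.35 over the leave-one-out fits. Flt4 was -0.026 with the replicate block and -0.38 to 0.44 with single mice left out. In NECA-treated against MI mice, Lyve1 was -0.21 and Mmrn1 -0.043 within the batch. With single mice left out there, Flt4 was -0.12 to 0.70 and Mmrn1 -0.24 to 0.46. In NECA-treated against sham mice, Prox1 was 0.051 without scaling factors, 0.14 by limma and 0.0025 with the replicate block, and -0.12 to 0.10 over the leave-one-out fits. Lyve1 was -0.055 with the replicate block and -0.22 to 0.69 over the leave-one-out fits, and Pdpn -0.067 to 1.36. None of these values of Lyve1, Flt4, Mmrn1, Prox1 and Pdpn passed the threshold. DESeq2 gave no adjusted p for 9 member values. Correlations of the deviations of mice with equal numbers ran from -0.25 to 0.20. They showed no pairing by number, but with so few mice per group they cannot exclude one.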
